A study of Neurospora crassa with 12 samples.

Results

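The 4 genes described here are the pheromone precursor gene *ccg-4* (NCU02500), the pheromone receptor genes *pre-1* (NCU00138) and *pre-2* (NCU05758), and *fmf-1* (NCU09387), chosen by identifier among the 9730 annotated genes of the *Neurospora crassa* tables. *N. crassa* is a filamentous fungus with the mating types *A* and *a*. A male cell such as a conidium releases a peptide pheromone, and the female hypha of the other mating type, the trichogyne, grows towards it. CCG-4 is the precursor of the pheromone of mating type *A*, and its gene also follows the circadian clock. MFA-1 is the pheromone of mating type *a*. PRE-1 is the receptor that lets *A* trichogynes sense *a* cells, and PRE-2 is the receptor of *a* strains. Both are seven-helix receptors that act through a heterotrimeric G protein and a MAP kinase cascade. FMF-1 is an HMG-domain protein that is needed when a strain acts as the female and when it acts as the male, and it is related to Ste11 of fission yeast.

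On assembly NC12, *ccg-4* lies on chromosome I from 2531832 to 2533997, *pre-1* on chromosome III from 2752660 to 2756067, *pre-2* on chromosome VII from 3727404 to 3729156, and *fmf-1* on chromosome I from 3502631 to 3504624. The coding sequences are 900 bases for *ccg-4*, 2175 bases for *pre-1*, 1701 bases for *pre-2* and 1845 bases for *fmf-1*. The 4 genes differ in codon usage, the property of genes that the study was about. The codon bias index (CBI, near 0 for random use of synonymous codons and near 1 for extreme bias) was 0.707 for *ccg-4*, above 97.8% of the 9015 genes with a value. It was 0.1 for *pre-1*, 0.172 for *pre-2* and 0.139 for *fmf-1*, all under the median of 0.211.

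The study compared Si*adat2*, in which *adat2* is silenced, with a wild type (WT). *adat2* encodes the catalytic subunit of the enzyme that converts adenosine 34 of tRNAs to inosine. Si*adat2* carries, at *his-3*, an inverted repeat of *adat2* under the *qa-2* promoter, which quinic acid (QA) switches on. It was made in a *bd*, *A*, *his-3* host and purified as a homokaryon, and how many transformants were used is not given in the sources used here. WT was the clock wild type 87-3 (*bd*, *a*). The 2 strains therefore differ in mating type by the study's methods, and silencing, mating type and strain background cannot be told apart in any comparison below. Both strains grew from fresh conidia in 0.1% glucose medium with QA under constant light, for 3 days in plates and then, as cut mycelial discs, for 1 day with shaking. The study's methods also list arginine in this medium, which the labels do not.

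Of the 12 libraries, 8 hold mRNA and were used. The accompanying mRNA-seq, made beside ribosome profiling, comprised 2 Si*adat2* and 2 WT libraries from cultures given cycloheximide (CHX) 10 min before harvest. The independent mRNA-seq comprised 2 libraries of each strain without CHX and with another library kit. The accompanying tables hold 1547105 and 2777576 reads in Si*adat2* replicates 1 and 2, against 961703 and 2361460 reads in WT. Of these libraries, 3 reads correspond to 1.94 and 1.08 RPM (reads scaled to a common library total) in Si*adat2* and to 3.12 and 1.27 RPM in WT. The independent tables give FPKM only, and their depth is unknown. The accompanying libraries did not show a lower level of the targeted gene: *adat2* was counted 16 and 90 times in the libraries labelled Si*adat2*, against 8 and 25 times in those labelled WT (log2 fold change 0.91, standard error 0.46, adjusted p = 0.116 in edgeR). With the experiment as a replicate block it was called higher in Si*adat2* (log2 fold change 0.96, adjusted p = 0.0256). Without Si*adat2* replicate 2 its log2 fold change was −0.17. These reads do not separate the gene from the silencing construct. All 4 independent libraries listed *adat2* at 0, which checks nothing. The paper reports, from cultures grown under the same conditions, a strong fall of *adat2* mRNA in Si*adat2* by quantitative RT-PCR. It also reports a large loss of the tRNA inosine in Si*adat2* by tRNA sequencing. The strains also differed in markers of conidiation, the formation of asexual spores. All 6 marker genes were higher in the libraries labelled Si*adat2* of the accompanying mRNA-seq, where their summed level was 85900.4 and 69302 RPM, against 2298 and 2355 RPM in WT. The hydrophobin gene *eas*, named after its values were seen, carried most of this sum, and without it the other 5 summed to 16438 and 16396 RPM in Si*adat2*, against 1079 and 1089.6 RPM in WT. Those 5, without *eas*, were the ones used in the independent mRNA-seq, where all 5 were called higher and summed to 4465 and 5863 FPKM in Si*adat2*, against 2415 and 2356 FPKM in WT. Of all genes tested, 23.9% were called higher in the accompanying and 20.9% in the independent mRNA-seq. No marker was at 0 in all libraries. In such bulk samples, more cells of a type and more RNA per cell cannot be told apart. The part of this difference in the results below was not tested.

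Per length, the 4 genes were low to moderate in both kinds of library. By the mean FPKM of the accompanying libraries, *ccg-4* ranked above 0.599%, *pre-2* above 10.9%, *fmf-1* above 23.2% and *pre-1* above 51.7% of the 9015 genes. In the independent libraries the ranks were 15.9% for *ccg-4*, 14.6% for *pre-1*, 25.6% for *pre-2* and 26.9% for *fmf-1* among 9660 genes. In the accompanying libraries labelled Si*adat2* the order of mean FPKM was *pre-1* (19.1), *fmf-1* (6.23), *pre-2* (1.91) and *ccg-4* (0.158), and the ranges of *pre-1* and *fmf-1* overlapped. In the accompanying WT libraries *pre-1* (21.2) and *fmf-1* (3.76) also overlapped, and no read of *pre-2* or *ccg-4* was counted. In the independent Si*adat2* libraries the order of mean FPKM was *pre-2* (3.40), *fmf-1* (1.46), *ccg-4* (0.193) and *pre-1* (0.0942). There *fmf-1*, from 0 to 2.92 FPKM, overlapped each of the other 3, and *ccg-4* overlapped *pre-1*. In the independent WT libraries the order was *fmf-1* (3.38), *pre-2* (0.551), *ccg-4* (0.166) and *pre-1* (0.141), with an overlap between *ccg-4* and *pre-1* only. The kinds of library were normalized separately, so levels are set side by side and not tested across them.

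**Figure D1:**
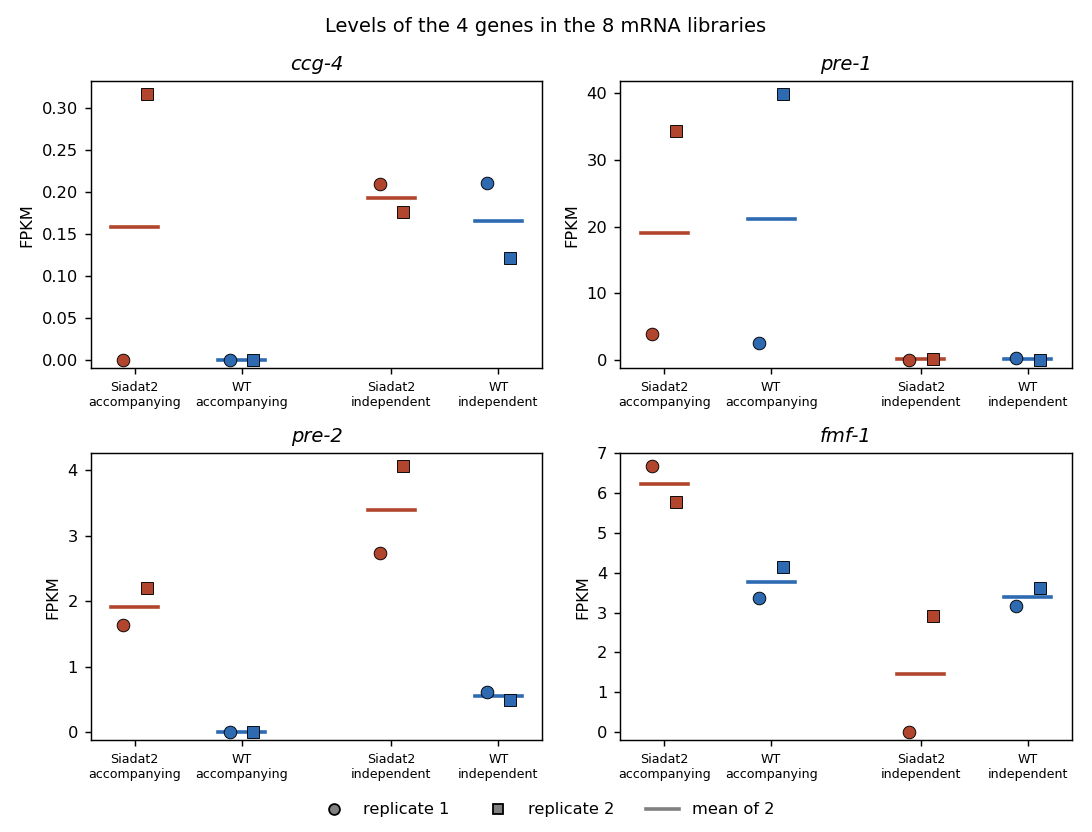
FPKM of *ccg-4*, *pre-1*, *pre-2* and *fmf-1* in each of the 8 mRNA libraries, with accompanying libraries on the left and independent libraries on the right of each panel, Si*adat2* in red and WT in blue. Circles are replicate 1, squares replicate 2 and lines the mean of 2. The red points of *pre-2* lie above the blue points in both kinds, and *pre-1* splits by replicate number, from 2.48 to 39.8 FPKM, in the accompanying libraries.

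The pheromone gene *ccg-4* was very low in every library. The accompanying libraries held 0 and 1 of its reads under the label Si*adat2* and 0 and 0 under the label WT. A count of 0 allows up to 1.94 RPM in Si*adat2* replicate 1, 3.12 RPM in WT replicate 1 and 1.27 RPM in WT replicate 2. Without CHX, in the independent libraries, it was at 0.209 and 0.176 FPKM in Si*adat2*, against 0.210 and 0.121 FPKM in WT, so the strains overlapped. It did not pass the filter on low values of either test. Tested without the filter, the independent log2 fold change was 0.16 (limma, adjusted p = 0.735). The deposited intervals lie above 0 in all 4 independent libraries, the lowest from 0.0353 to 0.212 FPKM in WT replicate 2. A difference between the strains was not detectable in the accompanying libraries at their depth, and the independent values overlapped.

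The other pheromone gene gave the opposite picture. *mfa-1* (NCU16992, chromosome V from 3396270 to 3397430) had values in the independent mRNA-seq only and was abundant. It was at 2304 and 2577 FPKM in Si*adat2*, against 90.7 and 80.4 FPKM in WT. Both Si*adat2* values lie far above both WT values, by 28.5-fold in the means (25.4-fold for replicate 1 and 32.1-fold for replicate 2). The log2 fold change was 4.83 with a standard error of 0.11 (limma, adjusted p = 0.00065). Each of these 4 values lies outside the confidence interval deposited beside it, as 21.3% to 25.1% of the values above 0 in the 4 tables do. For Si*adat2* replicate 1, for example, the interval runs from 1798 to 1823 FPKM. The genes of the mating-type locus of *A* strains, which encode the regulators of *A* identity, could not be used to check the strains. *mat A-1* (NCU01958), *mat A-2* (NCU01959) and *mat A-3* (NCU01960) were listed at 0 in all 4 independent libraries. In the accompanying libraries *mat A-1* had 2 reads, in Si*adat2* replicate 2 alone, and *mat A-2* had 1 read, in WT replicate 2 alone. A listed 0 in the independent tables checks nothing, as for *adat2*, and the accompanying counts are under the level of 3 reads. These transcripts therefore leave the mating types of the cultures undetermined, while *mfa-1*, the pheromone gene of mating type *a*, was higher in the strain whose host is given as *A*. The direction of *mfa-1* thus runs against the stated mating types, and the mating types of the cultures were not tested.

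The receptor gene *pre-1* split by experiment and not by strain. Its read counts in the accompanying libraries were 15 and 234 under the label Si*adat2*, against 6 and 234 in WT. These are 9.70 and 84.2 RPM in Si*adat2* and 6.24 and 99.1 RPM in WT. The replicate 2 libraries were high and the replicate 1 libraries low in both strains, with overlapping strains. Replicate 2 was 8.69 times replicate 1 in Si*adat2* and 15.9 times in WT. Of 7288 genes with reads in replicate 1 of both strains, 6 (0.0823%) had ratios at least as large in both, *pre-1* among them. The median ratios over those genes were 1.03 in Si*adat2* and 0.998 in WT.

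**Figure D2:**
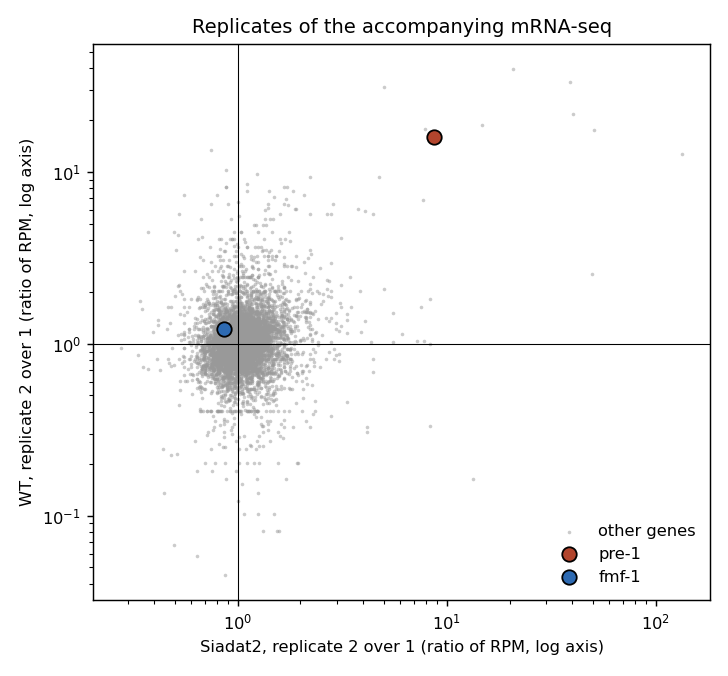
Ratio of RPM in replicate 2 over replicate 1 of the accompanying mRNA-seq for each gene with reads in every library, in Si*adat2* on the horizontal and in WT on the vertical axis, both on log scales. Lines mark a ratio of 1. *pre-1* lies at 8.69 and 15.9, away from the cloud around 1 in which *fmf-1* lies.

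Between the strains, *pre-1* did not pass the test in the accompanying mRNA-seq. Its log2 fold change was −0.57 with a standard error of 0.66 (edgeR, adjusted p = 0.502), where 23.9% of the 7362 genes tested were called higher in Si*adat2* and 25.9% lower. With library totals alone the split of calls over all genes was 2685 higher and 1401 lower, in place of 1760 higher and 1909 lower. Each of the experiments held 1 library of each strain, and with the experiment as a replicate block the log2 fold change was −0.46, with a standard error of 0.20 and adjusted p = 0.0387, which is past the threshold. Within experiments the ratio of Si*adat2* to WT was 1.55 in replicate 1, on 15 and 6 reads, and 0.85 in replicate 2. The value depended on each library. The log2 fold change was 0.16 without Si*adat2* replicate 1, where it was not called, and, called each time, −2.86 without Si*adat2* replicate 2, −1.22 without WT replicate 1 and 2.75 without WT replicate 2. The annotated *pre-1* transcript was, in the independent mRNA-seq, listed at 0 and 0.188 FPKM in Si*adat2*, against 0.282 and 0 FPKM in WT, and was too low for the test. Each of those libraries also listed an assembled transcript, of 3276 or 3287 bases, across the whole of *pre-1*. With the assembled transcripts the locus held 0.989 and 1.44 FPKM in Si*adat2*, against 1.28 and 0.966 FPKM in WT. The strains overlapped, at a log2 fold change of 0.10 (limma, adjusted p = 0.771). The 2 libraries at 0 were thus not without reads over *pre-1*.

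The receptor gene *pre-2* was higher in Si*adat2* than in WT in both kinds of library, in the accompanying one on few reads. PRE-2 is the receptor of *a* strains, and the host of Si*adat2* is given as *A*. Whether the level of *pre-2* follows mating type was not tested. In the accompanying mRNA-seq the libraries labelled Si*adat2* held 5 and 12 *pre-2* reads. These are 3.23 and 4.32 RPM, against 0 and 0 reads in WT. The 17 reads of Si*adat2* are 3.93 RPM over both libraries (exact 95% interval from 2.29 to 6.29 RPM). The WT libraries together allow up to 0.903 RPM, the level of 3 reads in their sum. The 3.93 RPM are 4.35 times this floor, and the lower end of the interval is 2.54 times it. Both ratios pool the libraries of each strain on the RPM scale. They cover counting error and not the spread between libraries. Against the floor of 3 reads in the WT library with the same number, the ratio was 1.04 in replicate 1 and 3.40 in replicate 2, so replicate 1 alone does not separate the strains. Both Si*adat2* libraries lay above both WT libraries, as for 51.7% of the genes tested in that direction on the RPM scale and 26.1% in the other. The counts were too low for the filter of the main test. Without the filter edgeR gave an adjusted p of 0.0148, and of 0.0355 with the replicate block. DESeq2 gave an unadjusted p of 0.0342 and no adjusted value.

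In the independent mRNA-seq *pre-2* was at 2.73 and 4.06 FPKM in Si*adat2*, against 0.606 and 0.495 FPKM in WT. Both Si*adat2* libraries were above both WT libraries, as for 32.9% of the 7549 genes tested, while 45.6% lay the other way. The means were 3.40 ± 0.939 FPKM in Si*adat2* and 0.551 ± 0.0780 FPKM in WT (SD, n = 2 each), a ratio of 6.17. By replicate number the ratio was 4.51 and 8.20. The log2 fold change was 2.41 with a standard error of 0.31 (limma, adjusted p = 0.00871), where 20.9% of genes were called higher and 28.3% lower. *pre-2* reached the filter, a mean of 1 FPKM over the 4 libraries, only through the Si*adat2* libraries, as both WT values were under 1. Without the filter limma gave an adjusted p of 0.00895. A ratio of means above 2 was reached by 15.1% of 8097 genes and one under 0.5 by 12.7%. Those shares in the accompanying mRNA-seq were 23.7% and 11.2% of 8417 genes. With a pseudocount of 1 in place of 0.1 the log2 fold change was 1.49 (adjusted p = 0.0104). The call was lost without WT replicate 1 (adjusted p = 0.0567) and without WT replicate 2 (adjusted p = 0.0639), while the log2 fold change stayed at 2.53 and 2.28. The deposited tables mark the *pre-2* estimate as based on little data in 3 of the 4 libraries, all but Si*adat2* replicate 2. With assembled transcripts the *pre-2* locus held 4.21 and 4.06 FPKM in Si*adat2*, against 0.902 and 1.02 FPKM in WT (log2 fold change 2.00, adjusted p = 0.000571). This summed level was also separated by strain. The assembled transcripts, of 2938 to 3119 bases, are longer than the annotated one of 1753 bases, so their FPKM is not that of *pre-2* alone. Si*adat2* replicate 2 listed no assembled transcript there.

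**Figure D3:**
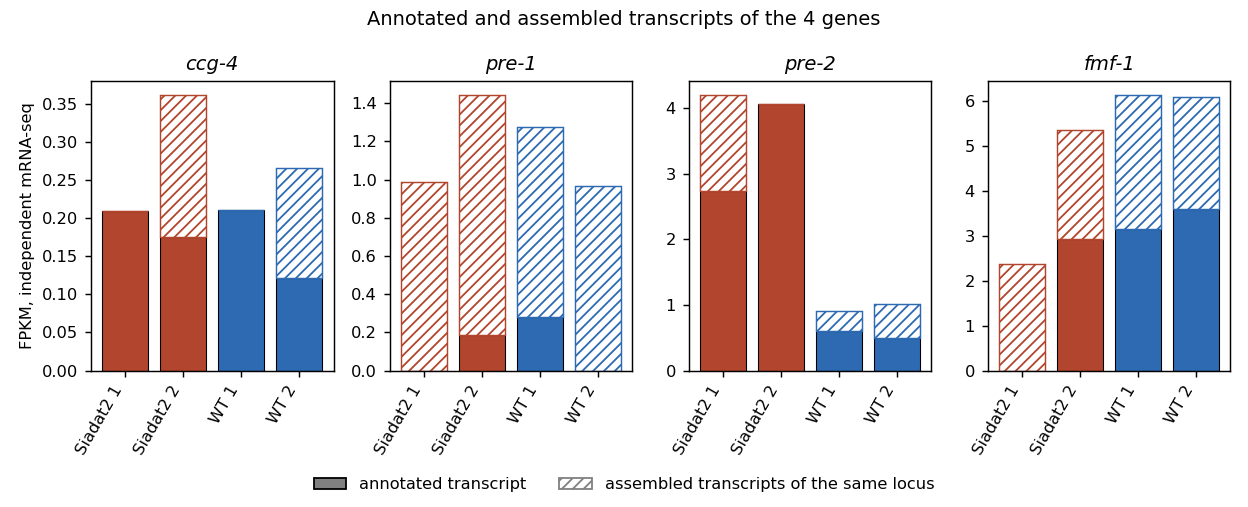
FPKM of the independent mRNA-seq for the annotated transcript (filled) and the assembled transcripts of the same locus (hatched, stacked on it) of the 4 genes in each library, Si*adat2* in red and WT in blue. *pre-1* in Si*adat2* replicate 1 and WT replicate 2, and *fmf-1* in Si*adat2* replicate 1, show no filled part but a hatched one, of 0.989, 0.966 and 2.38 FPKM.

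*fmf-1* lay on opposite sides of WT in the 2 kinds of library, and neither difference passed its test. Its accompanying read counts were 22 and 34 in the libraries labelled Si*adat2*, against 7 and 21 in WT. As RPM these are 14.2 and 12.2 in Si*adat2* and 7.28 and 8.89 in WT. Both Si*adat2* libraries were above both WT libraries, by 1.64-fold in mean RPM. On that scale 51.7% of the genes tested lay this way and 26.1% the other way. On the scale of the test the log2 fold change was 0.36 with a standard error of 0.41 (edgeR, adjusted p = 0.498). Scaling by library totals alone, which moved the median log2 fold change of all genes to 0.32 in place of 0.03, gave 0.65 for *fmf-1* (adjusted p = 0.194).

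In the independent mRNA-seq *fmf-1* was listed at 0 and 2.92 FPKM in Si*adat2*, against 3.16 and 3.60 FPKM in WT. Both Si*adat2* libraries were below both WT libraries, as for 45.6% of the genes tested, while 32.9% lay the other way. The 0 of Si*adat2* replicate 1 and the pseudocount set the size of the *fmf-1* difference. With a pseudocount of 1 in place of 0.1 the log2 fold change was −1.14 (limma, adjusted p = 0.266). The main log2 fold change was −2.66 with a standard error of 1.84 (limma, adjusted p = 0.302), against a median of −0.13 over all genes tested. It was −0.20 without Si*adat2* replicate 1 (adjusted p = 0.327) and −5.12 without Si*adat2* replicate 2 (adjusted p = 0.00726), the only fit run that called it. In Si*adat2* replicate 1 an assembled transcript of 9546 bases covered all of *fmf-1*, at 2.38 FPKM. In each of the other libraries assembled transcripts of 4677 to 5505 bases did so beside the annotated one. With these the *fmf-1* locus held 2.38 and 5.36 FPKM in Si*adat2*, against 6.14 and 6.09 FPKM in WT (log2 fold change −0.75, adjusted p = 0.152). The assembled transcripts are longer than the gene, so their FPKM is not that of *fmf-1* alone.

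The genes that carry the signal of these receptors inside the cell were taken from fixed lists. The 5 G protein genes encode the α subunits GNA-1, GNA-2 and GNA-3, the β subunit GNB-1 and the γ subunit GNG-1. Among the independent libraries limma called none of the 5, 0 also at an unadjusted p under 0.05, with a median log2 fold change of −0.03. *gna-2* had the smallest adjusted p (log2 fold change 0.34, standard error 0.16, adjusted p = 0.165). The accompanying mRNA-seq had 3 called higher and 1 lower in the libraries labelled Si*adat2*, with a median of 0.88 against 0.03 over all genes tested, of which 23.9% were called higher and 25.9% lower. *gna-3* was at 36.8 and 42.1 RPM in Si*adat2*, against 9.36 and 8.47 RPM in WT (log2 fold change 1.88). *gng-1* was at 90.5 and 83.9 RPM in Si*adat2*, against 15.6 and 23.3 RPM in WT (log2 fold change 1.78). These Si*adat2* values lie above those of WT, as for 51.7% of the genes tested on the RPM scale. *gna-1*, named after its values were seen, had a log2 fold change of 0.88, and *gnb-1* fell by 0.51 on the log2 scale, a call that was lost with library totals alone (adjusted p = 0.146). None of the 4 calls of the accompanying mRNA-seq was made in the independent one, and whether the kinds differ was not tested.

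The MAP kinase list held *nrc-1*, *mek-2* and *mak-2*, which encode the kinases of the pheromone cascade, the scaffold gene *ham-5*, and the transcription factor genes *pp-1* and *adv-1*. Of the 6, 1 was called in the independent mRNA-seq, *mak-2*, the MAP kinase itself. It was at 152 and 138 FPKM in Si*adat2*, against 265 and 258 FPKM in WT (log2 fold change −0.85, standard error 0.08, adjusted p = 0.00459), and it was not called without WT replicate 1 (adjusted p = 0.0776) or without WT replicate 2 (adjusted p = 0.0738). The accompanying level of *mak-2* was 154 and 170 RPM in Si*adat2*, against 99.8 and 115 RPM in WT, at a log2 fold change of 0.29 that was not called (adjusted p = 0.116), but was with the replicate block (adjusted p = 0.0424). There 1 gene of the list was higher, *nrc-1*, and 2 were lower, *mek-2* and *adv-1*, of which *nrc-1* and *adv-1* are named after their values were seen. *mek-2*, the kinase that activates MAK-2, had a log2 fold change of −0.66 in the accompanying and of −0.68 in the independent mRNA-seq, the second with adjusted p = 0.0681. Its accompanying call was lost with library totals alone (adjusted p = 0.0818). Over all genes tested, 20.9% were called higher and 28.3% lower in the independent and 23.9% and 25.9% in the accompanying mRNA-seq. The medians of the list were 0.02 in the accompanying and −0.21 in the independent mRNA-seq.

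**Figure D4:**
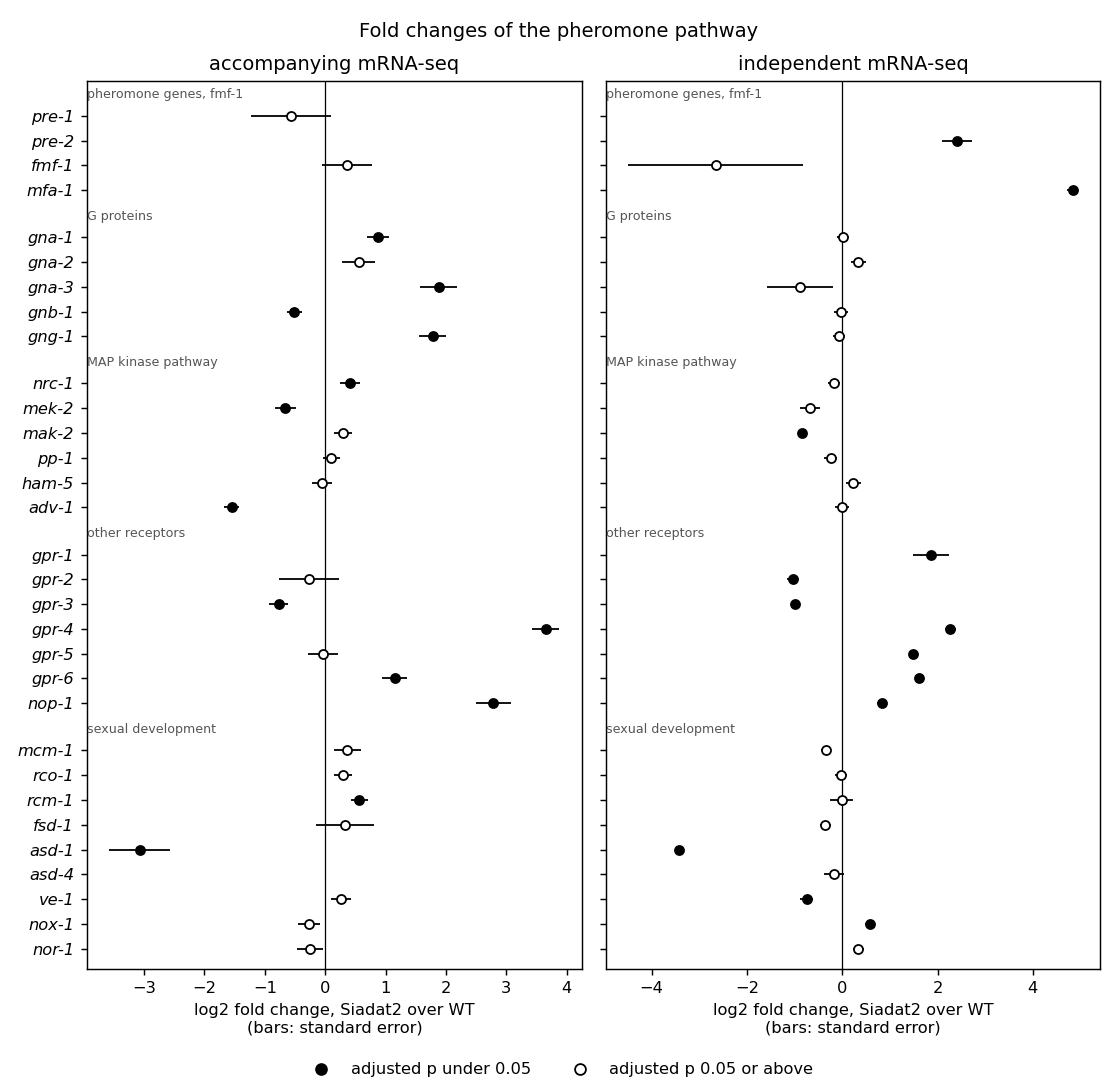
Log2 fold change of Si*adat2* over WT, with its standard error, for the members tested, *mfa-1* and 4 lists of pathway genes, from edgeR in the accompanying (left) and limma in the independent mRNA-seq (right). Filled points have an adjusted p under 0.05 and genes without a point were not tested. *mfa-1* (4.83) and *pre-2* (2.41) lie to the right on the independent side, where no G protein gene is filled.

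Among the 7 other G protein coupled receptor genes, none of which encodes a pheromone receptor, all were called in the independent mRNA-seq. Of these, *gpr-1*, named after its values were seen, reached the filter of a mean of 1 FPKM only through Si*adat2*. It was at 2.01 and 1.73 FPKM in Si*adat2*, against 0.588 and 0.329 FPKM in WT. Without CHX 5 were called higher and 2 lower, with a median log2 fold change of 1.49, where 20.9% of all genes tested were called higher and 28.3% lower. *gpr-4*, which encodes a receptor of carbon sensing, was at 26.2 and 30.1 FPKM in Si*adat2*, against 6.01 and 5.50 FPKM in WT (log2 fold change 2.27, standard error 0.12, adjusted p = 0.00141). *gpr-6* had a log2 fold change of 1.61, *gpr-5* of 1.49 and *gpr-3* of −0.997. The call of *gpr-3* was lost without either WT library (adjusted p = 0.0544 and 0.0583). Of the 7, 6 were tested in the accompanying mRNA-seq, 3 were called higher and 1 lower, with a median of 0.55, beside 23.9% higher and 25.9% lower over all genes. *gpr-4* (3.65) and *gpr-6* (1.15) were called higher and *gpr-3* (−0.77) lower there as well. The third gene called higher was the opsin gene *nop-1* (2.79), named after its values were seen. *gpr-5*, at 33.0 and 37.1 RPM in Si*adat2*, against 34.3 and 26.7 RPM in WT, was not called in the accompanying mRNA-seq.

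Of 9 genes for transcription factors and enzymes of sexual development, 1 was called higher and 2 lower in the independent mRNA-seq (median −0.18), and 1 higher and 1 lower among the 8 tested in the accompanying one (median 0.28). Over all genes tested the shares were 20.9% higher and 28.3% lower in the independent and 23.9% and 25.9% in the accompanying mRNA-seq, so neither count exceeds them. The gene with the largest difference was *asd-1*, which encodes a rhamnogalacturonase needed for ascus development. It was at 2.85 and 2.65 FPKM in Si*adat2*, against 30.5 and 30.5 FPKM in WT (log2 fold change −3.43, standard error 0.10, adjusted p = 0.000667). In the accompanying mRNA-seq it was at 0.646 and 5.04 RPM in Si*adat2*, against 22.9 and 23.7 RPM in WT (log2 fold change −3.07, adjusted p = 0.00012). Thus both Si*adat2* libraries lay below both WT libraries for *asd-1* in both kinds. So did 26.1% of the genes tested in the accompanying (RPM scale) and 45.6% in the independent mRNA-seq. *nox-1*, a NADPH oxidase gene, had a log2 fold change of 0.58 and *ve-1*, a velvet gene, of −0.75 in the independent mRNA-seq. Both calls were lost without WT replicate 1 (adjusted p = 0.12 for *nox-1* and 0.142 for *ve-1*) and without WT replicate 2 (0.16 for *nox-1* and 0.127 for *ve-1*), and that of *nox-1* also without Si*adat2* replicate 2 (0.0597). The second gene called in the accompanying mRNA-seq was *rcm-1*, a corepressor gene, which was higher (log2 fold change 0.57) and is named after its values were seen. The MADS-box gene *mcm-1* had a log2 fold change of 0.36 in the accompanying and of −0.34 in the independent mRNA-seq, and neither was called.

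Markers of the tissue moved as follows beside these results. The transcription factor gene *fl*, which controls conidiation, was at 252 and 229 FPKM in Si*adat2*, against 94.8 and 90.8 FPKM in WT (log2 fold change 1.37), and had a log2 fold change of 3.75 in the accompanying mRNA-seq. *con-10* had log2 fold changes of 2.65 in the independent and 2.74 in the accompanying mRNA-seq, *con-8* of 0.67 and 2.41, and *con-6* of 0.97 and 3.66. The calls of *con-6* and *con-8* in the independent mRNA-seq were lost without either WT library. *hex-1*, which encodes the Woronin body protein of hyphae, was at 1770 and 1562 FPKM in Si*adat2*, against 3047 and 3139 FPKM in WT (log2 fold change −0.89), and that call was also lost without either WT library (adjusted p = 0.191 and 0.193). The accompanying level of *hex-1* was 1610 and 1342 RPM in Si*adat2*, against 1358 and 1130 RPM in WT. Hyphal transcripts were thus present in all libraries, as the label mycelia states.

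To describe the pattern of each member, log2(FPKM + 1) was centred within each kind of library and compared with that of 7173 genes by the root mean square difference over the 8 libraries. The nearest genes were chosen on these same values, so the pattern that they share with a member follows from the choice. The gene most like *pre-2* was NCU05751 (0.0631). It lies on the same chromosome VII, from 3708740 to 3709661, with 7 annotated genes and 17742 bases between it and *pre-2*. NCU05751 was at 42.5 and 51.3 FPKM in the independent Si*adat2* libraries, against 16.1 and 15.1 FPKM in WT. In the accompanying mRNA-seq it was at 56.1 and 64.5 FPKM in Si*adat2*, against 18.2 and 19.4 FPKM in WT. NCU12100 (0.0817) and NCU02889 (0.111) followed. At the low level of *pre-2* the added 1 shrinks its differences, so a close match here is not an equal fold change. *pre-2* itself differed by 6.17-fold in the means of the independent mRNA-seq and was at 0 in both accompanying WT libraries. How often a gene of similar pattern lies this near was not counted.

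The genes most like *pre-1* were NCU07450 (0.280), NCU05080 (0.281) and NCU01520 (0.428), and they split by replicate number in the accompanying libraries as *pre-1* did. NCU07450 was at 4.49 and 35.5 FPKM in Si*adat2*, against 3.16 and 56.6 FPKM in WT. The genes most like *fmf-1* were NCU00662 (0.154), NCU07294 (0.199) and NCU09140 (0.223). All of these were listed at 0 in the independent Si*adat2* replicate 1, as *fmf-1* was, and at 2.68 FPKM or more in the other independent libraries. The genes most like *ccg-4*, which was nearly flat, were *bio-1* (0.0533), NCU03551 (0.0745) and NCU09254 (0.0765). The difference of *ccg-4* from a flat line was 0.126. *ccg-4* was at 0.316 FPKM or less in every library, where the added 1 holds its values near flat. Its flatness and its nearest genes therefore say little about its pattern.

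**Figure D5:**
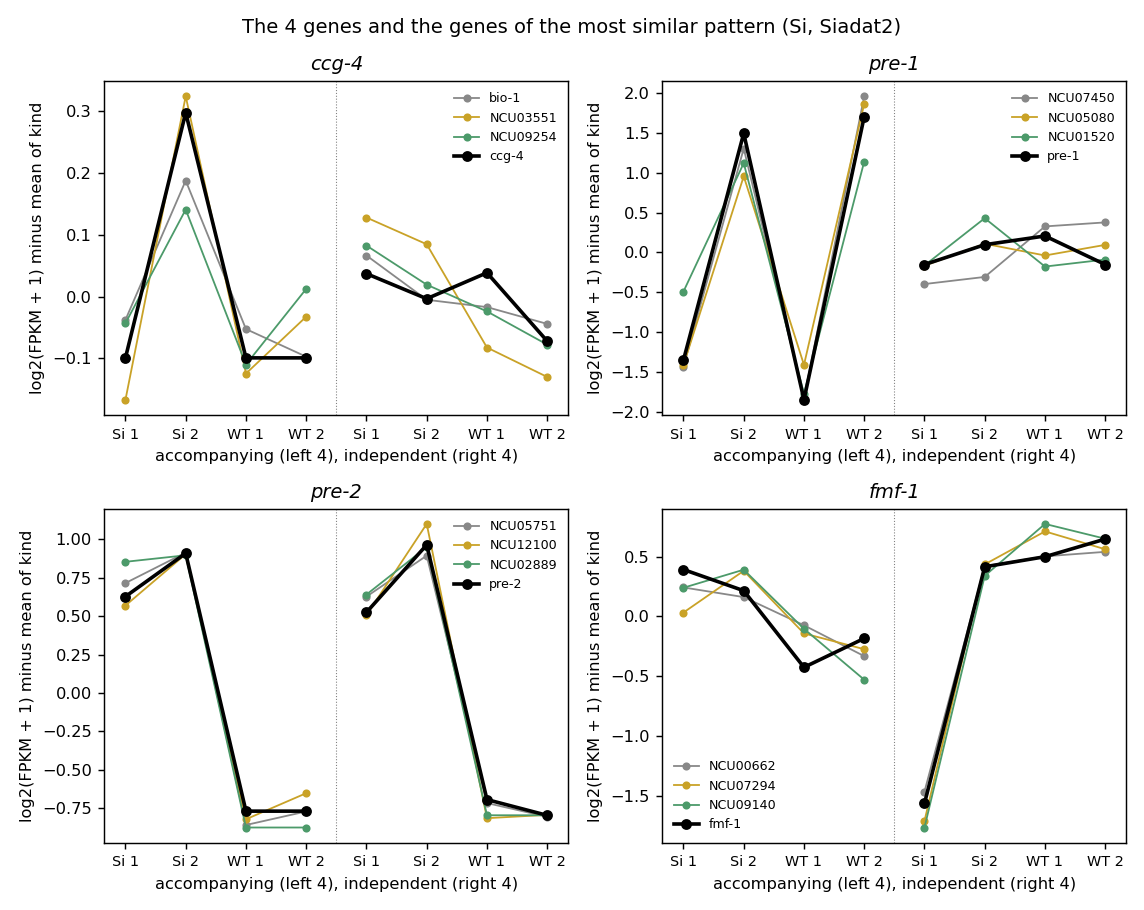
Log2(FPKM + 1) minus its mean within each kind of library for the 4 genes (black) and for the 3 genes with the smallest root mean square difference from each (coloured), in the accompanying (left 4) and independent libraries (right 4), Si denoting Si*adat2*. *pre-2* and its 3 genes are above 0 in every Si*adat2* library and below 0 in every WT library, *pre-1* and its genes alternate by replicate number in the accompanying libraries, and *fmf-1* and its genes drop in the independent Si*adat2* replicate 1.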

How the data were processed

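The members and the gene lists were chosen with earlier results of these data known. The authors deposited, per coding sequence of the accompanying mRNA-seq, a count of uniquely mapped reads, with flanks of 100 bases included, its FPKM, and the codon bias index (a CodonW score). Independent tables, as deposited, hold for every annotated or assembled transcript its FPKM, the bounds of that FPKM and its coverage, a signal of read depth. TopHat2 and Cufflinks are named in the submitters' processing notes, and the annotation is on NC12. Versions are not given in the sources used here. The codon occupancies of the ribosome profiling hold no value for single genes and were not used.

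Counts were tested with edgeR 4.0.16 (TMM, filterByExpr with a minimum count of 10, quasi-likelihood), and log2(FPKM + 0.1) with limma 3.58.1 and a variance trend where the mean reached 1 FPKM, in R 4.3.3. A limma fold change of a low gene with all values above 0 is understated by the pseudocount. Where a library is at 0, as for *fmf-1*, the pseudocount sets its size. FPKM was summed over the annotated transcripts of each gene, leaving out 70 genes for which a table lacked a transcript. Assembled transcripts under the same gene were added, weighted by the share of the gene they cover, in an alternative chosen after seeing the data, as was the block without the filter. p-values were adjusted by Benjamini-Hochberg over all genes tested, with a threshold of 0.05. The paper calls the replicates of its mRNA-seq biological and independent. With 2 libraries per strain, p-values measure the spread between these libraries only. Intervals and the floor of 3 reads cover counting error only. In the accompanying mRNA-seq the paper's experiments pair the strains, and deviations of libraries with the same number correlated at 0.279 over 7362 genes. Symbols and positions are from the NCBI gene table of NC12, which held all 9015 accompanying genes. The genes *ste-50* and *ste-20* were left out of the MAP kinase list because that table gives their identifiers other names. The named genes are the members, *adat2*, the mating-type locus, *mfa-1*, up to 4 genes per list with the smallest adjusted p in the independent mRNA-seq, and the 3 genes of the most similar pattern. Scripts were tested on simulated data. DESeq2 1.42.0 was an alternative.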

Additional observations from a re-analysis of the deposited data

Results flagged for a closer look

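For 5 named genes both Si*adat2* libraries lay above both WT libraries in the accompanying mRNA-seq and below them in the independent one. Over all genes tested, 51.7% lay above and 26.1% below in the accompanying mRNA-seq on the RPM scale. In the independent mRNA-seq 32.9% lay above and 45.6% below. The share of all genes that lay on opposite sides in the 2 kinds was not counted. The difference between the kinds was not tested. The log2 fold changes were 0.36 in the accompanying and −2.66 in the independent mRNA-seq for *fmf-1*, 0.29 and −0.85 for *mak-2*, 0.10 and −0.25 for *pp-1*, 0.26 and −0.75 for *ve-1*, and 0.36 and −0.34 for *mcm-1*. The values of the accompanying mRNA-seq are on the RPM scale for the order of libraries and on the TMM scale for the fold change. The kinds differ in CHX, in library kit and in counting, which cannot be told apart here. Groups of 2 libraries were too small for a check of single libraries far from the rest.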

How the results depend on the processing

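In the accompanying mRNA-seq 1760 genes were called higher and 1909 lower. DESeq2 called 1041 higher and 1462 lower, scaling by library totals alone 2685 higher and 1401 lower, and with the replicate block 2027 were higher and 2126 lower. Leaving out 1 library gave 1313 to 1845 higher and 1631 to 1988 lower. *pre-1* was called lower without the filter on low counts (−0.56, adjusted p = 0.0139) and with the replicate block (−0.46), and leaving out 1 library gave −2.86 to 2.75. *adat2* ranged between −0.17 and 1.42 when 1 library was left out, *hex-1* between −0.19 and 0.12, and *gpr-5* between −0.24 and 0.11. With library totals alone, log2 fold changes turned to 0.25 for *hex-1*, 0.25 for *gpr-5*, 0.24 for *ham-5* and 0.023 for *nox-1*. The block changed 3 calls of named genes there, *pre-1*, *adat2* (0.96, adjusted p = 0.0256) and *mak-2*. *fmf-1* was not called under any alternative, with log2 fold changes of 0.25 to 0.56 when 1 library was left out.

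In the independent mRNA-seq 1577 genes were called higher and 2133 lower. Leaving out 1 library gave 602 to 1758 higher and 359 to 2746 lower, with the lowest counts without a WT library (619 and 359 without replicate 1, 602 and 369 without replicate 2). *pre-2* ranged between 2.13 and 2.68 and *fmf-1* between −5.12 and −0.20 in these fits. Both kept their direction and side of the threshold under the other alternatives, *pre-2* with log2 fold changes from 1.49 (pseudocount 1) to 2.62 (coverage) and adjusted p from 0.000571 to 0.0272. Libraries with the same number share only the number there (correlation 0.0093). With the replicate block 1316 genes were higher and 1649 lower, and *pre-2* stayed at 2.41 (adjusted p = 0.0272), while the call of *nox-1* was lost (adjusted p = 0.052). Reversed values were 3.31 for *mek-2* from its first transcript alone, 0.0086 for *gnb-1* from coverage and 0.0084 with median-centred libraries, and leaving out 1 library gave −0.20 to 0.14 for *gnb-1* and −0.19 to 0.059 for *gng-1*. With Pearson's correlation in place of the root mean square difference, the 3 genes nearest to *pre-2* were the same, 2 of 3 for *pre-1*, 1 of 3 for *ccg-4* and 0 of 3 for *fmf-1*. The cause of these changes was not tested. Reads per gene limit what the accompanying libraries can show for *ccg-4* and *pre-2*.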

Other observations

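Besides *pre-1*, the accompanying mRNA-seq held 5 genes whose replicate 2 exceeded replicate 1 at least as much in both strains. The ratio of replicate 2 to replicate 1 was 20.9 in Si*adat2* and 39.5 in WT for NCU02488, 40.4 and 21.7 for NCU02873, 14.8 and 18.7 for NCU02879, 38.9 and 33.1 for NCU04424, and 50.7 and 17.5 for NCU06064. These genes are named after their values were seen.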
